A study of Mus musculus with 12 samples.

Results

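Cytosolic ribosomal proteins were examined in inguinal subcutaneous fat (iWAT), the main beige depot of the mouse. The set holds genes named for proteins of the 2 ribosomal subunits, and is neither complete nor limited to protein-coding genes. It was chosen by name (symbols of the form Rpl or Rps with a number, plus Rplp0, Rplp1, Rplp2 and Rpsa, without pseudogene names and Rps6 kinases) and by level, a mean deposited log2(FPKM + 0.1) over 3 in the 12 libraries. Of 24091 genes in the tables, 85 carried such a name, and 49 of those lay over 3: 28 with large subunit names (Rpl) and 21 with small subunit names (Rps). All 49 passed the filter on low values, FPKM over 0.1 in at least 50% of libraries, which kept 15413 genes. Because level chose the set, levels are given as a description without a test.

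RNA-seq was performed on 4 groups of 3 libraries from C57BL/6 mice. bBMKO mice were Prx1-Cre+/Bmal1 fl/fl, and bBMCtr mice were their Prx1-Cre-/Bmal1 fl/fl littermates, so that the floxed Bmal1 allele was present in every mouse and the Cre transgene only in bBMKO. The Prx1 promoter drives Cre in the fat cells of subcutaneous depots and in the cells they arise from, and iWAT also holds immune and vascular cells. Mice of both genotypes were kept either in the cold, at 10 °C for 2 weeks, or at ambient temperature. The labels give neither age nor sex. Libraries were labelled as replicates, without stating whether each came from 1 mouse or a pool, so p-values measure the spread between these libraries.

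The cytosolic ribosome translates nuclear mRNA. Its small subunit carries the mRNA and reads codons, and its large subunit joins amino acids and threads the new chain through an exit tunnel. Ribosomal protein mRNAs are made in large amounts in growing cells. Many begin with a terminal oligopyrimidine (TOP) motif, a C followed by an unbroken run of C and T at the 5′ end, through which mTORC1 and LARP1 control their translation. Such control acts on translation and mRNA stability, and RNA-seq counts read only mRNA amount.

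Start sites are shown first for the 6 genes called lower in any comparison, all of which have a RefSeq promoter, and for Rps27l, added after its values were seen, because the TOP motif is defined by the first transcribed bases. Each window runs 5′ to 3′ from 40 bases before the annotated start through the first 20 transcribed bases (RefSeq, GRCm38.p6), and capitals mark the longest run of at least 5 pyrimidines that begins with C within 10 bases of the start, where there is one.
Rps3 (chr7:99483690-99483749, minus strand): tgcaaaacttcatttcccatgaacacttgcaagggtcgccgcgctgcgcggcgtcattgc
Rpl13a (chr7:45128726-45128785, minus strand): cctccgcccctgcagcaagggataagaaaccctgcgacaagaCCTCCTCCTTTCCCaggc
Rps26 (chr10:128626487-128626546, minus strand): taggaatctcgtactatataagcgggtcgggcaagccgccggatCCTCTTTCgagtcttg
Rpl39 (chrX:37085203-37085262, minus strand): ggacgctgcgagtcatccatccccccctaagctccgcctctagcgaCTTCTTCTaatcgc
Rpl27a (chr7:109519155-109519214, plus strand): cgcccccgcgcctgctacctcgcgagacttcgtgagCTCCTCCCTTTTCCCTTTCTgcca
Rps2 (chr17:24720023-24720082, plus strand): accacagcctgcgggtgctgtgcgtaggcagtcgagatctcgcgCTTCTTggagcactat
Rps27l (chr9:66946046-66946105, plus strand): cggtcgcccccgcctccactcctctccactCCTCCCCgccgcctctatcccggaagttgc
Runs were read from 10 bases before the start on, so that a pyrimidine stretch that begins further upstream, as in Rps27l, is marked only from there. Of these 7 windows, Rps3 alone held no such run. RefSeq promoters were matched for 36 of the 49 genes, and 19 of the 36 (52.8%) had a run of this kind, against 30.8% of all 27025 promoters. Reading from the annotated first base on, whatever base precedes it, such a run was found in 6 of the 36 (16.7%), against 2.49% of all promoters. In the whole window of 250 bases before and 50 after the start, on both strands, the ETS core CCGGAAG occurred in 41.7% of the 36, against 9.12% of all promoters. The E-box CACGTG, the element that Bmal1 with Clock binds, occurred in 11.1% of the 36, against 7.24% of all promoters. TATAAA occurred in 13.9%, against 14.2%. These are matches of letters and say nothing of binding.

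Levels spanned a wide range within the set. On the log2(FPKM + 0.1) scale, per length, the highest were Rplp1 at 8.43, a protein of the stalk that recruits elongation factors, Rpl8 at 8.34, near the peptidyl transferase centre, and Rpl4 at 8.27, which lines the exit tunnel. The lowest were Rpl18 at 3.66, Rpl3 at 3.57, Rpl27a at 3.34 and Rpl13 at 3.20. Rpl13 lay just inside the level chosen, and Rpl29, at 2.99, just outside.

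The 36 named genes at or under 3 included core ribosomal proteins, such as Rps6, the substrate of S6 kinase, at 1.99, and Rps27 at 0.52. Rpl26 was listed with 0 counts in all libraries. Ribosomal protein genes have many processed pseudogenes, and only uniquely placed reads were counted. In the GENCODE M21 annotation, the share of 51-base stretches (the read length) of the principal transcript that also occurred in another gene had a median of 39.6% for 48 genes of the set and 69.9% for 35 of the genes under it. The share was 7.74% for Rpl8 and 16.0% for Rpl4, against 59.5% for Rplp1, 80.3% for Rpl13 and 98.6% for Rps27. Across these 83 genes, Spearman's correlation of the share with the level was -0.371, a description over genes of the same libraries. Single genes departed from it both ways, with Rps29 at a share of 35.6% and a level of -0.81, and Rpl35 at 94.9% and 4.41. Genes annotated over the same exons were counted as other genes in this share. Exons of Rpl35 overlapped 2 such genes, so part of its share may come from its own locus. Because only uniquely placed reads were counted, levels are not compared further between genes. Why some levels were low was not tested. Exons of 8 of the 48 overlapped another annotated gene, and 20 hosted snoRNA genes in the same direction. The strand used in counting is not given in the sources used here.

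**Figure D1:**
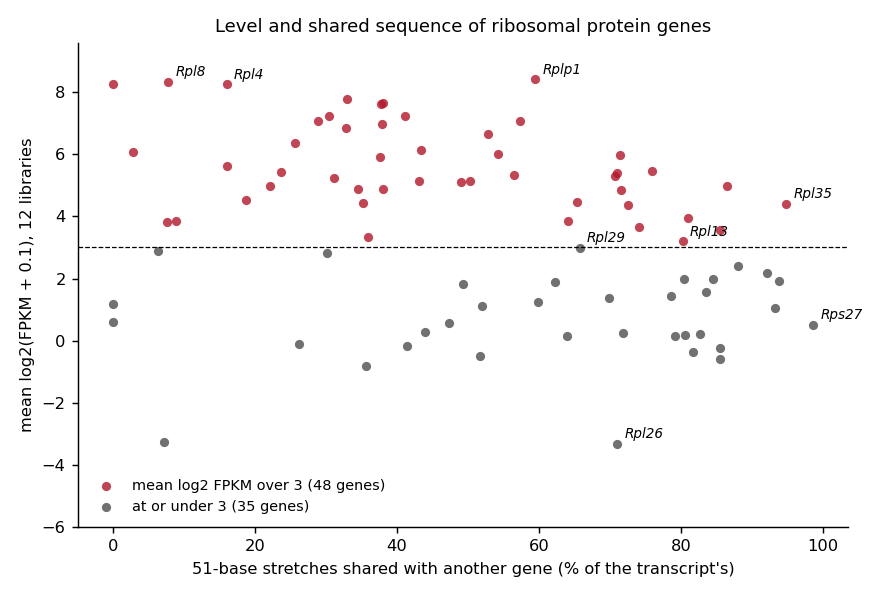
Mean log2(FPKM + 0.1) over 12 libraries against the percentage of 51-base stretches of the principal transcript that also occur in another gene, 1 point a gene, with the level of 3 as a dashed line. Genes over 3 share a median of 39.6% and genes at or under 3 a median of 69.9%, with Rpl8 at 7.74% and Rps27 at 98.6%.

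Libraries held 17887795 to 21436282 counts. The 49 genes took 0.394%, 0.390% and 0.405% of all counts in the 3 cold bBMKO libraries, against 0.569%, 0.706% and 0.524% in cold bBMCtr. At ambient temperature they took 0.520%, 0.614% and 0.597% in bBMKO, against 0.833%, 0.656% and 0.586% in bBMCtr. Means were 0.396% ± 0.00776 in cold bBMKO and 0.5998% ± 0.0948 in cold bBMCtr, and 0.577% ± 0.0501 in ambient bBMKO and 0.692% ± 0.127 in ambient bBMCtr (SD, n = 3 each). All cold bBMKO libraries were below every other library, whereas the other 3 groups overlapped. The groups differed in other transcripts too. Summed over 18 lymphocyte markers (B and T cell genes, none of them at 0 in any library), CPM (the count relative to TMM-scaled library size) were 190, 160 and 147 in cold bBMKO, against 2015, 2618 and 1565 in cold bBMCtr. In ambient libraries they were 140, 299 and 871 in bBMKO, against 2882, 1182 and 182 in bBMCtr. The libraries with the highest sums within bBMCtr, ambient replicate 1 and cold replicate 2, were also those with the highest share of ribosomal protein counts. Within bBMKO the highest sums, in ambient replicate 3 and cold replicate 1, were not in the libraries with the highest share, ambient replicate 2 and cold replicate 3. The sum of 14 skeletal muscle markers, also none at 0, was 3432 to 9865 CPM in cold bBMKO, against 201 to 6462 CPM in cold bBMCtr. It was 109 to 2410 CPM in ambient bBMKO, against 71.7 to 4961 CPM in ambient bBMCtr. Adipocyte markers were abundant throughout, with sums of 44556 to 53712 CPM in cold bBMKO, against 33544 to 41684 CPM in cold bBMCtr, and of 31590 to 40952 CPM in ambient bBMKO, against 21043 to 29878 CPM in ambient bBMCtr. In bulk tissue, fewer cells of a type and less RNA per cell cannot be told apart.

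**Figure D2:**
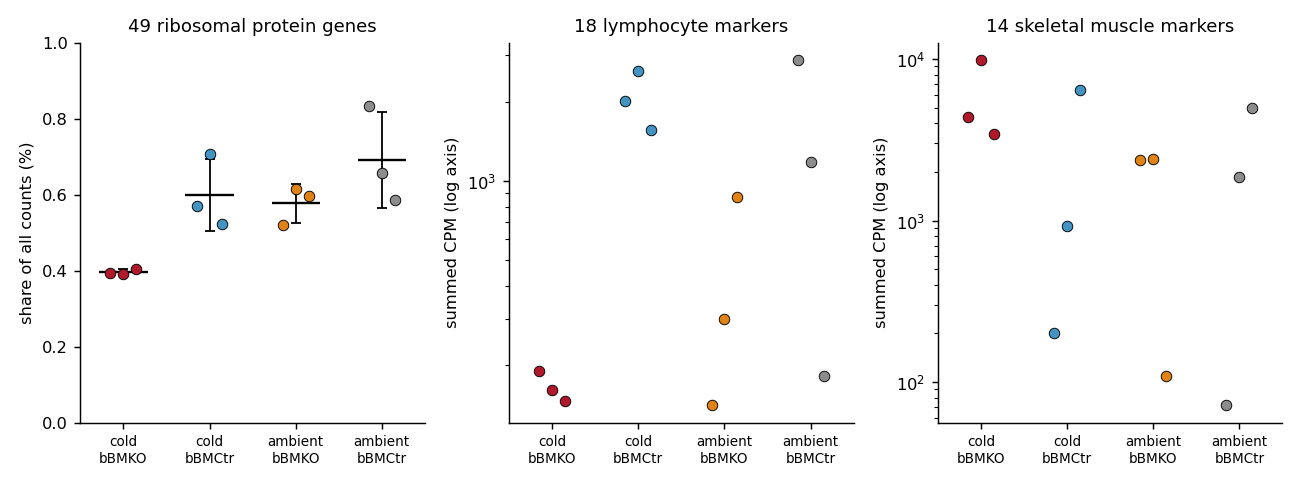
Share of all counts on the 49 ribosomal protein genes (left, %, linear axis from 0, with the mean and SD of 3 libraries as bars), and summed CPM of 18 lymphocyte markers (middle) and 14 skeletal muscle markers (right) on log axes, 1 point a library. The cold bBMKO libraries hold 0.390% to 0.405% and lie below all others on the left, and their lymphocyte sums of 147 to 190 CPM lie below those of cold bBMCtr.

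Cold and ambient libraries also differed in sex-linked genes. The 4 Y-linked genes examined were higher and Xist lower in cold than in ambient libraries, in both genotypes, and ambient bBMKO replicate 2 held low levels of Y-linked transcripts beside Xist. Temperature and sex therefore cannot be told apart in any comparison of cold with ambient. Age may differ between cold and ambient libraries too. The paper's legends give a younger age for ambient mice profiled by RNA-seq than its methods give for cold acclimation. Its legends name both male and female mice for RNA-seq. Arntl, which encodes Bmal1, had 18.9, 17.6 and 19.6 CPM in cold bBMKO, against 8.25, 7.93 and 6.14 CPM in cold bBMCtr. It had 13.5, 16.9 and 18.2 CPM in ambient bBMKO, against 10.7, 7.58 and 3.77 CPM in ambient bBMCtr. It was thus higher in bBMKO at both temperatures. These counts cover the whole gene, exons outside the deleted part included, and so check no label.

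**Figure D3:**
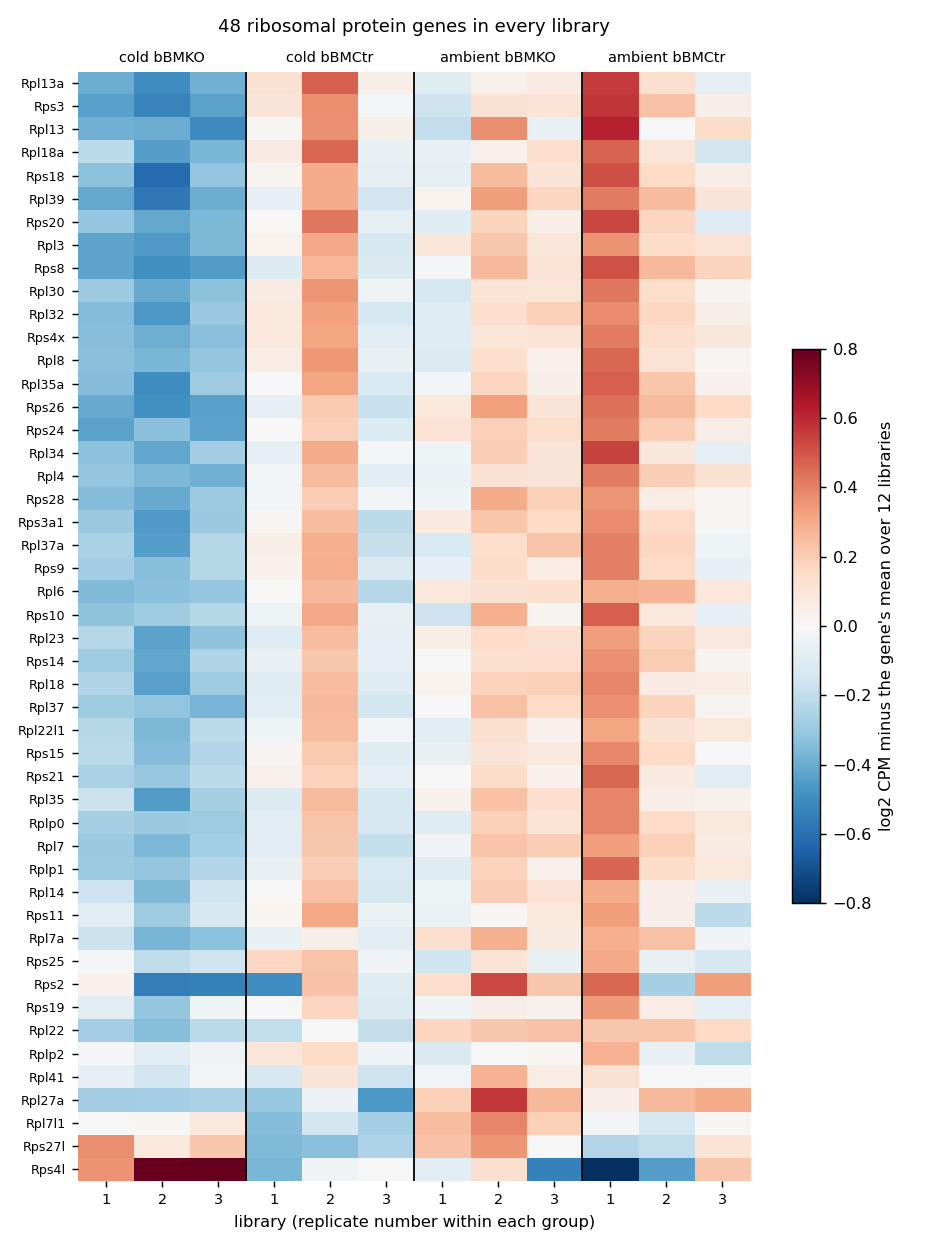
Log2 CPM of 48 of the 49 ribosomal protein genes in every library, each minus its own mean over 12 libraries, with genes ordered by their bBMKO against bBMCtr difference in the cold and colours capped at 0.8 either way. Of all 49, the lowest library is a cold bBMKO one for 43 and the highest an ambient bBMCtr one for 41, while Rps4l, at the bottom, is highest in cold bBMKO.

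The first comparison asked whether ribosomal protein mRNA differed between bBMKO and bBMCtr in the cold. In cold bBMKO, as compared to cold bBMCtr, 46 of the 49 genes had a negative log2 fold change, with a median of -0.36, against 0.05 for all genes tested. In 40 genes every bBMKO library lay below every bBMCtr library, and in 3 every one lay above, against 26.9% and 29.7% of all genes. At an adjusted p under 0.05 with no fold minimum (edgeR quasi-likelihood test, Benjamini-Hochberg over 15413 genes), 26 genes were lower and 3 higher, against 16.7% and 18% of all genes. Under the study's rule, a fold over 1.5 with p under 0.05 and adjusted p under 0.25, 2 genes fell and 1 rose, against 13.1% and 9.67% of all genes. Few members thus passed the fold limit, and their shares stood below the background. The count of calls depended on scaling. With library size alone, where the median of all genes was -0.17, 22 fell and 1 rose, against 19% and 4.94% of all genes. With limma on log2 FPKM 18 fell and 1 rose, against 17.2% and 5.07% of all genes. The share of the set called lower was thus below that of all genes with TMM and above it under these 2 alternatives.

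The 2 genes that fell were Rpl13a and Rps3. Rps3, which sits at the mRNA entry of the small subunit (chr7:99477896-99483709, mm10), had 310, 289 and 312 CPM in cold bBMKO, against 450, 542 and 417 CPM in cold bBMCtr. The groups did not overlap, with cold bBMCtr replicate 2 the highest. Its log2 fold change was -0.63 ± 0.15 (SE; edgeR adjusted p = 0.011). Rpl13a, a large subunit protein that also acts in translational silencing in human monocytes (chr7:45125563-45128745), had 249, 232 and 251 CPM in cold bBMKO, against 356, 456 and 339 CPM in cold bBMCtr. Again no library of one group reached the other, and the log2 fold change was -0.65 ± 0.16 (edgeR adjusted p = 0.014). Both calls were lost without cold bBMCtr replicate 2, when no gene of the set was called lower and Rps3 stood at -0.54, Rpl13a at -0.53.

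Rps4l was the gene that rose. It lies on chromosome 6 (chr6:148354656-148355596), is a relative of the X-linked Rps4x, and is annotated in GENCODE M21 as a transcribed processed pseudogene. It had 25.7, 35.2 and 35.9 CPM in cold bBMKO, against 15.5, 19.5 and 20.01 CPM in cold bBMCtr. The groups did not overlap. The log2 fold change was 0.82 ± 0.27 (edgeR adjusted p = 0.042), a call lost without cold bBMCtr replicate 1 (0.68). With the skeletal muscle markers as a covariate it was 0.49 and not called, and with the lymphocyte markers it was -0.12 (edgeR adjusted p = 0.84), so that its direction turned. Rps4x itself, on chromosome X, had 71.4, 69.1 and 71.6 CPM in cold bBMKO, against 95.7, 113 and 84.9 CPM in cold bBMCtr. Its log2 fold change was -0.47 ± 0.12, an adjusted p of 0.015 by edgeR without reaching the fold minimum.

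The other 2 genes that were higher at an adjusted p under 0.05 were also relatives of core ribosomal proteins. Rps27l, a paralogue of Rps27 that p53 induces, had 35.4, 29.1 and 31.8 CPM in cold bBMKO, against 21.5, 21.7 and 23.1 CPM in cold bBMCtr. All bBMKO libraries were higher (log2 fold change 0.54 ± 0.12, edgeR adjusted p = 0.011). Rpl7l1, a relative of Rpl7, had 66.2, 66.5 and 70.3 CPM in cold bBMKO, against 52.1, 59.6 and 54.8 CPM in cold bBMCtr (log2 fold change 0.29 ± 0.08, edgeR adjusted p = 0.018). Their partners gave other values. Rpl7 had a log2 fold change of -0.30 ± 0.11, and Rps27, at 1.05 to 1.38 CPM in cold bBMKO and 0.805 to 1.17 CPM in cold bBMCtr, of 0.19 ± 0.22. Neither reached an adjusted p under 0.05. Whether a relative and its partner differed from each other was not tested.

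Other paralogue pairs followed no single pattern. Rpl22l1 had a log2 fold change of -0.33 ± 0.11 and Rpl22, which developing αβ T cells need in mice, of -0.15 ± 0.07. Rpl3, close to the peptidyl transferase centre, had 25.2, 24.6 and 26.4 CPM in cold bBMKO, against 34.5, 41.7 and 30.9 CPM in cold bBMCtr, with no overlap (log2 fold change -0.49 ± 0.11, edgeR adjusted p = 0.010). Its striated muscle paralogue Rpl3l, outside the set, had 8.18, 23.4 and 8.38 CPM in cold bBMKO, against 0.101, 2.35 and 13.9 CPM in cold bBMCtr, and was high in the same libraries as the skeletal muscle markers. Rpl39l, outside the set as well, rose by 1.03 on the log2 scale (edgeR adjusted p = 0.062), whereas Rpl39 had -0.50 ± 0.13. Rpl10, at 2.19 on the log2 FPKM scale outside the set, fell by 0.65 (edgeR adjusted p = 0.033), and Rpl10l, a testis gene, had 1 count in all 12 libraries.

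Among the genes of highest level, Rpl4 had 520, 502 and 493 CPM in cold bBMKO, against 633, 768 and 605 CPM in cold bBMCtr (log2 fold change -0.40 ± 0.11, edgeR adjusted p = 0.022). Rpl8 had -0.46. Rps18, of the small subunit head, had -0.50. The stalk proteins had smaller values, with -0.30 for Rplp0, a common reference gene in qPCR, -0.29 for Rplp1 and -0.12 for Rplp2; of these, Rplp2 was looked at after its value was seen, and none reached an adjusted p under 0.05. The large subunit genes had a median of -0.35 and the small subunit genes of -0.36. The 33 named genes at or under 3 that passed the filter had a median of -0.35. Of these, 7 (21.2%) were called lower and 1 (3.03%) higher, against 13.1% and 9.67% of all genes. Rps6, also among the 33, had -0.21 ± 0.15.

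Ribosome-related genes outside the set were counted by the same rule, which called 9.67% of all genes higher and 13.1% lower. Of 77 mitochondrial ribosomal proteins, which are nuclear-encoded but serve a separate ribosome, 14 (18.2%) rose and none fell, with a median of 0.42. With library size alone 1 rose and none fell, against 4.94% and 19% of all genes, with a median of 0.21. Mrps34 of this list had 53.9, 51.9 and 51.8 CPM in cold bBMKO, against 31.6, 33.3 and 35.2 CPM in cold bBMCtr. None of 36 initiation factors was called (median 0.13, and -0.09 with library size alone). At an adjusted p under 0.05, 9 of them were higher and 1 lower, against 18% and 16.7% of all genes. None of 11 elongation and termination factors was called (median -0.16). Among 49 ribosome assembly factors (median -0.12), Nop56, a box C/D snoRNP protein, fell by 0.63 and Heatr1, a processome protein, fell by 0.78 on the log2 scale. Of 15 RNA polymerase I genes (median -0.32), Tcof1, which encodes the rDNA transcription factor treacle, fell by 1.02. Of 20 genes of mTORC1, TOP regulators and the Myc family (median 0.13, and -0.09 with library size alone), 1 rose and 2 fell. Deptor, an mTOR inhibitor, rose by 0.64 (edgeR adjusted p = 0.017), and Mycl fell by 0.78 (0.050). Myc, the growth regulator that drives ribosome production, had 20.3, 21.2 and 23.3 CPM in cold bBMKO, against 34.5, 37.7 and 30.4 CPM in cold bBMCtr. It fell by 0.66 (edgeR adjusted p = 0.0036). The 22 other TOP mRNAs tested had a median of -0.07.

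**Figure D4:**
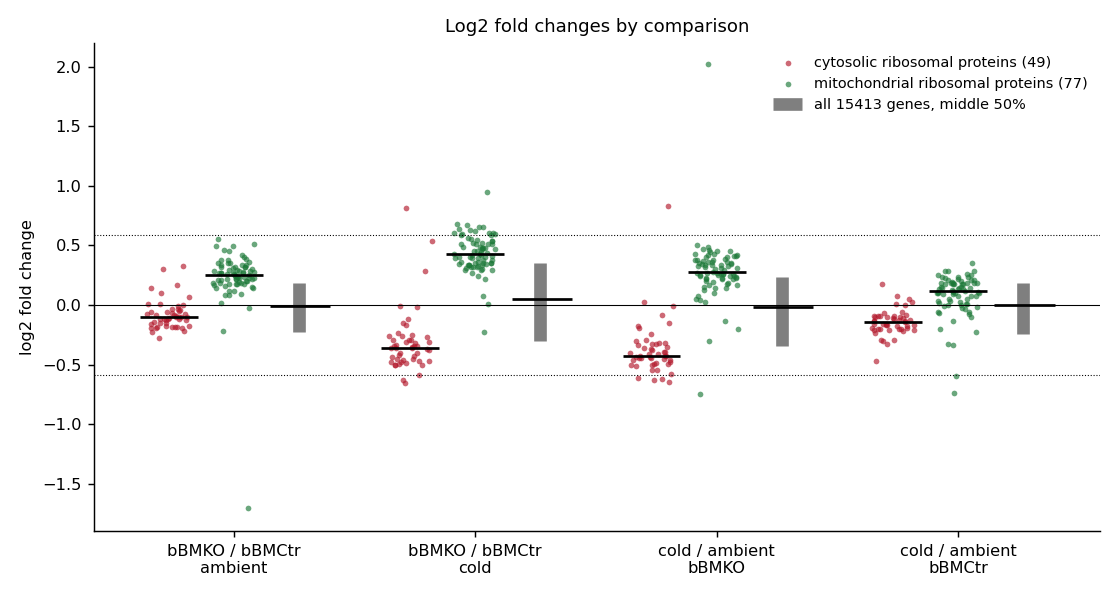
Log2 fold changes of 49 cytosolic ribosomal proteins, 77 mitochondrial ribosomal proteins (1 point a gene, median as a bar) and the middle 50% of all 15413 genes in 4 comparisons, with dotted lines at the 1.5-fold limit. The cytosolic medians are -0.36 for bBMKO against bBMCtr in the cold and -0.43 for cold against ambient in bBMKO, and the mitochondrial medians are 0.42 and 0.28.

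Of the marker lists, 4 of 11 adipocyte genes (36.4%) and 3 of 9 progenitor and fibroblast genes (33.3%) rose in this comparison, against 9.67% of all genes. All 18 lymphocyte markers fell, against 13.1% of all genes, with a median log2 fold change of -4.88. The sums of these 18 markers did not overlap between the groups. With their mean log2 CPM as a covariate in the fit, no gene of the set was called at either threshold, the median became -0.10, and 41 of 49 were negative. By the study's rule that fit called 561 of all 15413 genes higher and 784 lower. Because the sums do not overlap, genotype and marker level cannot be told apart within the cold libraries. With the skeletal muscle markers as the covariate, no gene of the set was called by the study's rule, against 1098 higher and 1701 lower of all 15413 genes. The median was -0.27, and 9 genes were lower at an adjusted p under 0.05. Calls at that threshold also depended on single libraries, with 6 to 28 genes lower when 1 library was left out. There were 10, 7 and 6 without cold bBMKO replicate 1, 2 or 3, and 7 without cold bBMCtr replicate 2, when the median was -0.26. With the replicate number as a block, 16 were lower.

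At ambient temperature, no gene of the set was called in ambient bBMKO against ambient bBMCtr, where 3.88% of all genes rose and 4.75% fell. DESeq2 called none either, and at an unadjusted p under 0.05 either tool gave 2 higher and none lower. By edgeR, 1936 of all 15413 genes were higher at that p and 1342 lower. The median log2 fold change was -0.10, with 41 of 49 negative, against -0.01 for all genes. Every bBMKO library was higher than every bBMCtr library for 1 gene and lower for 1, against 13.7% and 7.34% of all genes. The gene with all libraries higher was Rpl7l1, at 78.4, 86.7 and 75.5 CPM in ambient bBMKO, against 65.1, 60.0 and 66.7 CPM in ambient bBMCtr. It had a log2 fold change of 0.33 ± 0.08 and was the only gene at an adjusted p under 0.05 (edgeR, 0.042), against 3.19% of all genes higher and 0.889% lower. Rpl4 was the gene with all libraries lower, at 623, 700 and 692 CPM in ambient bBMKO, against 861, 739 and 700 CPM in ambient bBMCtr (log2 fold change -0.19 ± 0.11). Rps27l had 0.30 ± 0.12 and Rps3 had -0.28 ± 0.15. The 18 lymphocyte markers were all negative here, with a median of -1.91, though none was called. With the lymphocyte markers as a covariate the median of the set was 0.00, with 24 of 49 negative, and Rpl7l1 had an adjusted p of 0.090 by edgeR. Ambient bBMCtr replicate 1, with the most lymphocyte marker transcripts of all libraries, was the highest of 12 for 41 of the 49 genes. Without it the median was -0.01, and without ambient bBMKO replicate 1 it was -0.06. The 4 Y-linked genes were called higher in this comparison, through ambient bBMKO replicate 2, without which the median was -0.11.

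Cold was then compared with ambient within each genotype, where temperature and sex cannot be told apart. In bBMKO, 47 of the 49 genes were negative in cold against ambient, with a median of -0.43, against -0.02 for all genes. Every cold library lay below every ambient library for 43 genes and above for 1, against 22.7% and 21.2% of all genes. By the study's rule 4 genes fell and 1 rose, against 12.4% and 6.41% of all genes. With library size alone 23 fell and 1 rose, against 16.2% and 3.84% of all genes, and with limma 13 fell and 1 rose, against 13.7% and 4% of all genes. Here too the share called lower lay below that of all genes with TMM and above it under both alternatives. At an adjusted p under 0.05 with no fold minimum 24 were lower and none higher, against 13.2% and 11.2% of all genes. At an unadjusted p under 0.05, 1 was higher by edgeR, against 2796 of all 15413 genes. DESeq2 gave 1 higher at the adjusted threshold. The cold bBMKO libraries are the same ones as in the comparison of genotypes in the cold, so these 2 results are not independent.

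The 4 genes that fell were Rps26, Rpl39, Rpl27a and Rps2. Rps26, at the mRNA exit of the small subunit and mutated in human Diamond-Blackfan anaemia (chr10:128624529-128626506), had 63.2, 59.8 and 61.9 CPM in cold bBMKO, against 88.7, 105 and 89.8 CPM in ambient bBMKO. The groups were well apart (log2 fold change -0.62 ± 0.11, edgeR adjusted p = 0.0035). Rpl39, a small protein in the wall of the exit tunnel (chrX:37082518-37085222), had 23.8, 21.3 and 24.0 CPM in cold bBMKO, against 32.3, 39.9 and 35.7 CPM in ambient bBMKO (log2 fold change -0.64 ± 0.13, edgeR adjusted p = 0.0066). Rpl27a, of the large subunit (chr7:109519195-109522369), had 13.5, 13.6 and 13.7 CPM in cold bBMKO, against 18.8, 24.3 and 19.7 CPM in ambient bBMKO (log2 fold change -0.62 ± 0.13, edgeR adjusted p = 0.0080). Rps2, near the mRNA entry (chr17:24720063-24721927), was more variable, at 73.1, 48.6 and 48.9 CPM in cold bBMKO, against 78.6, 103 and 82.7 CPM in ambient bBMKO. Its log2 fold change was -0.63 ± 0.24 (edgeR adjusted p = 0.083), and 71.0% of its 51-base stretches occurred elsewhere. Without ambient bBMKO replicate 2, the library with Y-linked transcripts, Rpl39 alone was still called lower. Without ambient bBMKO replicate 1 there were 8, against 1984 of all 15413 genes. At an adjusted p under 0.05, 15 and 14 genes were lower without ambient bBMKO replicate 2 or 3, and 13, 11 and 12 without cold bBMKO replicate 1, 2 or 3.

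Rps4l rose in cold bBMKO, at 25.7, 35.2 and 35.9 CPM, against 18.9, 21.9 and 13.7 CPM in ambient bBMKO (log2 fold change 0.83 ± 0.27, edgeR adjusted p = 0.051). The groups did not overlap, and the call was lost without ambient bBMKO replicate 3 (0.65), with the lymphocyte covariate (0.58) and with the muscle covariate (0.50). Genes with the smallest p that did not reach the fold minimum included Rpl22, at 131, 124 and 136 CPM in cold bBMKO, against 178, 183 and 186 CPM in ambient bBMKO (log2 fold change -0.49 ± 0.07, edgeR adjusted p = 0.00073). Rps24 had -0.54 ± 0.10 and Rpl3 had -0.55 ± 0.11. Values near 0 were seen for Rplp2 with -0.01 ± 0.11 and Rps27l with 0.02 ± 0.12.

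**Figure D5:**
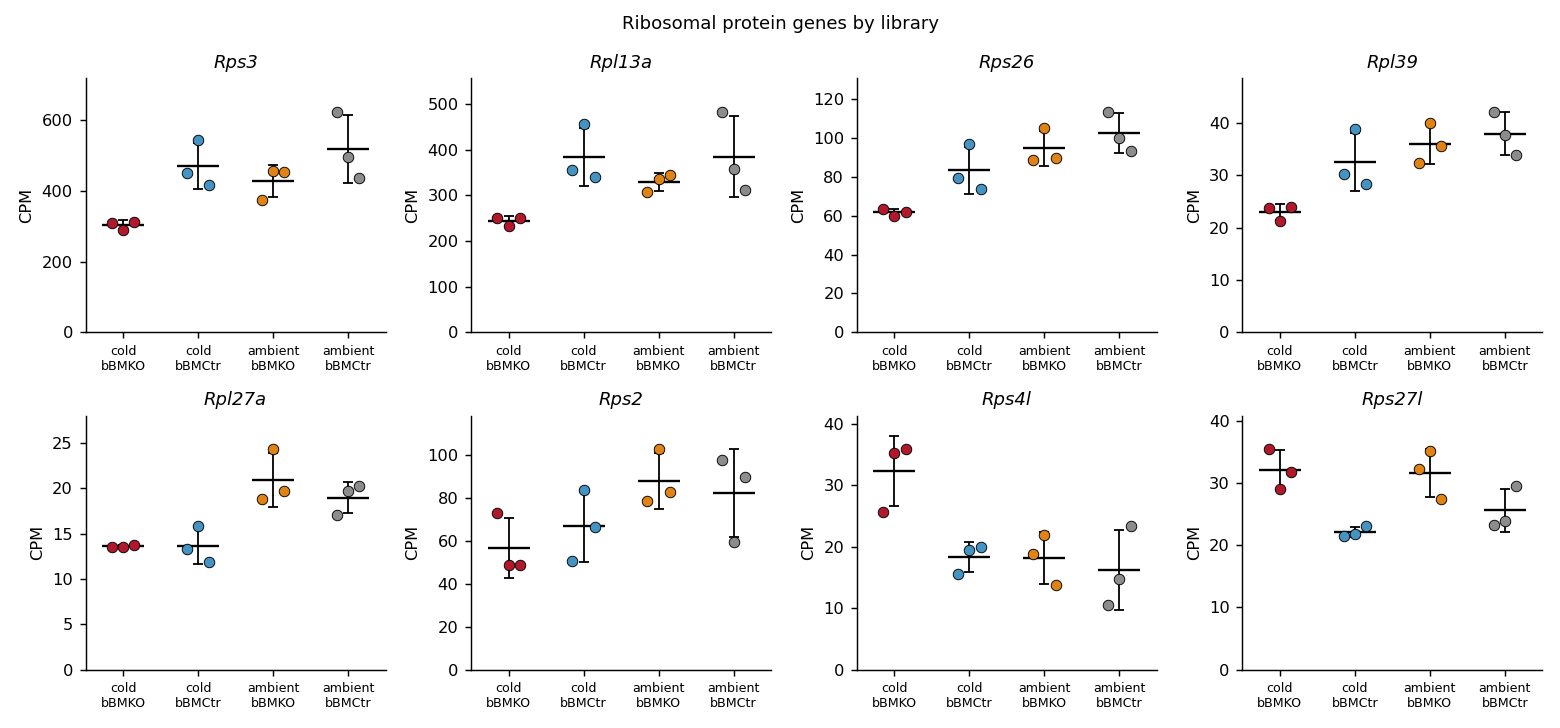
CPM of the 6 genes called lower in a comparison (Rps3, Rpl13a, Rps26, Rpl39, Rpl27a, Rps2), of Rps4l and of Rps27l, 1 point a library, with the mean and SD of 3 libraries as bars and axes from 0. Rps3 lies at 289 to 312 CPM in cold bBMKO, against 417 to 542 CPM in cold bBMCtr, while Rps4l lies at 25.7 to 35.9 CPM, against 15.5 to 20.01 CPM.

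Of 18 lymphocyte markers 1 (5.56%) fell in cold against ambient bBMKO, against 12.4% of all genes. All 18 were negative, with a median log2 fold change of -2.38. The marker sums were 147 to 190 CPM in the cold, against 140 to 871 CPM at ambient temperature. With these markers as a covariate the median of the set was -0.33, and 23 genes were lower at an adjusted p under 0.05. By the study's rule 2 were called lower, against 1948 of all 15413 genes. With the muscle markers the median was -0.31 and 12 genes were lower at an adjusted p under 0.05. Of 12 mammary epithelial markers tested, 11 (91.7%) fell in cold against ambient in each genotype, against 12.4% of all genes in bBMKO and 11.3% in bBMCtr. The part of the mammary genes in the result was not tested. Of the lists, assembly factors had a median of -0.19, with Npm1 (-0.69) and Nop58 (-0.70) falling. Of the 20 genes of mTORC1, TOP regulators and the Myc family (median 0.12), Myc fell by 0.67 and Deptor rose by 0.89. Mitochondrial ribosomal proteins had a median of 0.28, with 1 (1.3%) called higher, against 6.41% of all genes.

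No gene of the set was called in cold against ambient bBMCtr, where 3.48% of all genes rose and 11.3% fell, and DESeq2 called none. The median was -0.14, with 44 of 49 negative, against 0.00 for all genes. At an unadjusted p under 0.05, 5 were lower and none higher by edgeR, and 4 lower by DESeq2. Of all 15413 genes, 2600 were lower and 1585 higher at that p by edgeR. Without ambient bBMCtr replicate 1 the median was -0.04. Without cold bBMCtr replicate 2 it was -0.23, with 20 genes lower at an unadjusted p under 0.05. Without cold bBMCtr replicate 1 or 3 the median was -0.08. Every cold library was lower for 4 genes and higher for none, against 19% and 13.2% of all genes. At an adjusted p under 0.05 2 genes were lower, against 10.5% of all genes lower and 4.26% higher. Rpl22 had 138, 158 and 138 CPM in cold bBMCtr, against 183, 184 and 177 CPM in ambient bBMCtr (log2 fold change -0.33 ± 0.07, edgeR adjusted p = 0.0088). Rpl27a had 13.3, 15.9 and 11.9 CPM in cold bBMCtr, against 17.0, 19.6 and 20.2 CPM in ambient bBMCtr (log2 fold change -0.47 ± 0.13, edgeR adjusted p = 0.040). Rpl22 and Rpl27a were thus lower in the cold in each genotype at that threshold, while neither passed it between genotypes in the cold (-0.15 ± 0.07 and -0.01 ± 0.13). The count of 2 was 0 when only the compared groups were fitted and 0 without ambient bBMCtr replicate 2 or cold bBMCtr replicate 1. It was 1 without ambient or cold bBMCtr replicate 3, and 4 without cold bBMCtr replicate 2. Rps4l had 0.18 ± 0.27 and Rps25 had 0.08 ± 0.13. None of the 18 lymphocyte markers was called here, though all were positive, with a median of 0.54. With them as a covariate the median of the set was -0.24.

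Whether cold against ambient differed between genotypes was tested as an interaction, the log2 fold change of bBMKO minus that of bBMCtr. Because sex differed with temperature, an interaction of genotype with cold cannot be told apart from one with sex. The interaction was negative for 47 of the 49 genes, with a median of -0.27, against 0.02 for all genes. No gene of the set was called by edgeR or DESeq2, against 0.169% of all genes higher and 0.597% lower. At an unadjusted p under 0.05, edgeR had 617 of all 15413 genes lower and 607 higher. Of the set, 4 were lower at that p by either tool. By edgeR these were Rpl3 (-0.42 ± 0.16), Rps24 (-0.34 ± 0.14), Rps28 (-0.41 ± 0.17) and Rpl39 (-0.42 ± 0.19), with edgeR adjusted p of at least 0.57. Rps4l had the largest positive value among the 49, 0.65 ± 0.39. Without ambient bBMCtr replicate 1 the median was -0.40. Of the set, 1 gene was then called higher and 1 lower, against 652 and 1115 of all 15413 genes. At an unadjusted p under 0.05, 24 genes of the set were lower. Without cold bBMCtr replicate 2 the median was -0.17 and 2 were. All 18 lymphocyte markers had a negative interaction, with a median of -2.98, though none was called. With these markers as a covariate the median interaction of the set was -0.11.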

How the data were processed

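Gene counts and log2(FPKM + 0.1) values of 12 iWAT libraries were used. Per the labels and the study's methods, the authors prepared Kapa mRNA libraries, sequenced single reads of 51 bases, aligned them with STAR to mm10 and assigned unique reads to GENCODE genes with HTSeq-count. These deposited counts are raw. The deposited log2 values are log2(FPKM + 0.1) with replicates kept apart. For tool versions, strand setting and the GENCODE release, no source used here gives a value.

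Counts were tested in edgeR 4.0.16 (R 4.3.3) with TMM factors and the quasi-likelihood test, with 1 term per group over all 12 libraries. Genes with FPKM over 0.1 in at least 50% of libraries were kept (15413 of 24091). A gene was called at a fold over 1.5, p under 0.05 and Benjamini-Hochberg adjusted p under 0.25, the study's limits. The study's methods name DESeq2 for p-values; DESeq2 1.42.0 was an alternative, as was limma 3.58.1 on log2 FPKM. CPM are counts scaled by the TMM-adjusted library size, errors are standard errors of log2 fold changes, and depth was 17887795 to 21436282 counts.

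Genes named are, per comparison, up to 5 called genes of smallest p in each direction or the 2 of smallest p where none was called, the 4 highest and lowest by level, 7 paralogue pairs, Rplp0, Rps6, Rps18, Rpl13a, Rpl4 and Arntl, and up to 3 called genes a list. Rplp2, Rps28 and single members named for their place at a margin were chosen after their values were seen. The genes of the set and all lists were chosen with earlier results of these data known. Of the marker lists not described beside a result, none of 8 endothelial genes and at most 1 of 10 macrophage genes was called in a comparison. Of 9 progenitor and fibroblast genes, 4 (44.4%) were called lower in cold against ambient bBMCtr, against 11.3% of all genes. Promoters came from RefSeq (GRCm38.p6), 1 a gene, and shared stretches from GENCODE M21, restricted to 1 principal transcript a gene after a first result over all transcripts had been seen. Protein sequences were not used here, and some genes that this rule names are not reported here.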

Additional observations from a re-analysis of the deposited data

How the results depend on the processing

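Limits first. With 3 libraries a group, calls near the 1.5-fold limit turned on single libraries, and only uniquely placed reads entered the counts. Outside the main fit, all genes were counted by the study's rule only. Counts of the set at other p limits there stand without a share of all genes. Scaling moved the zero point: with library size alone the median of all genes was -0.17 both for bBMKO against bBMCtr in the cold and for cold against ambient in bBMKO, and 22 and 23 genes of the set were then called lower, with medians of -0.58 in each. With limma on log2 FPKM 18 and 13 were called lower, with a median of -0.53 in the cold genotype comparison. Relative to the median of all genes the set stood at -0.40 and -0.41 by edgeR with TMM, and at -0.41 and -0.41 with library size alone. RLE factors, DESeq2, either other filter and fitting only the compared groups gave at most 3 and 5 lower in these 2 comparisons.

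With the lymphocyte covariate no gene was higher or lower in the cold genotype comparison (median -0.10), 0 were higher and 2 lower for cold against ambient in bBMKO, and the median interaction was -0.11. With the muscle covariate it was 0 and 0, and 0 and 2. Of all 15413 genes, the lymphocyte fit called 561 higher and 784 lower in the first comparison, and 942 and 1948 in the second. The muscle fit called 1098 and 1701, and 814 and 1878. At an adjusted p under 0.05 with no fold minimum, 1 gene was higher in the ambient genotype comparison, 3 were higher and 26 lower in the cold one, 2 were lower in cold against ambient bBMCtr, and 0 were higher and 24 lower in bBMKO. With both limits, a fold over 1.5 and adjusted p under 0.05, 0 were higher in cold against ambient bBMKO. Over every row of the name pattern that passed the filter, 82 genes, 1 was lower in the ambient genotype comparison, against 4.75% of all genes. In the cold one 2 were higher and 9 lower, against 9.67% and 13.1% of all genes. For cold against ambient, 5 were lower in bBMCtr and 10 in bBMKO, against 11.3% and 12.4% of all genes. Without Rps4l, Rps27l, Rpl7l1 and Rpl22l1, a choice made after seeing the data, 0 were higher in either cold bBMKO comparison. Leaving out 1 library at a time gave 0 to 2 higher and 0 to 5 lower in the cold genotype comparison. Of all 15413 genes, 1109 to 1771 were then higher and 1767 to 2083 lower. In cold against ambient bBMKO it gave 0 to 1 higher and 1 to 8 lower, against 847 to 1062 and 1644 to 1984 of all genes. In the interaction it gave 0 to 1 higher and 0 to 1 lower.

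Some values changed sign. Rps4l, called higher at 0.82 in the cold genotype comparison, became -0.12 with the lymphocyte covariate. The others were not called. Rpl22 in the ambient genotype comparison became -0.11 with library size alone, -0.031 with only the compared groups and -0.07 with limma, and -0.0049 to 0.044 with 1 library left out. Rps27l in cold against ambient bBMKO became -0.13, -0.0033 and -0.09 under the same settings, -0.054 with the lymphocyte and -0.075 with the muscle covariate, and -0.075 to 0.090 with 1 library left out. Rps25 in cold against ambient bBMCtr became -0.0041 with the lymphocyte covariate, and Rps4l in cold against ambient bBMCtr ran from -0.053 to 0.55 with 1 library left out. Their causes were not tested.

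Same-numbered libraries did not deviate together (correlations of -0.70 to 0.45), so the numbers were not taken as pairs. With the replicate block the calls stayed at 1 higher and 2 lower in the cold genotype comparison, against 1456 and 1987 of all 15413 genes. In cold against ambient bBMKO they stayed at 1 higher and 4 lower, against 931 and 1833 of all genes. At an adjusted p under 0.05, 16 and 18 genes of the set were lower in these 2 comparisons.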
